A study of Mus musculus with 6 samples.

Results

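The genes described are 8 transcription factors and modulators that carry the signal of the circadian clock to other genes: Dbp, Tef, Hlf, Nfil3, Bhlhe40, Bhlhe41, Ciart and Rora. They were taken from a list of clock-controlled regulators that was chosen with earlier results of these data known. Every array probe that the scanner files assign to a RefSeq transcript of the gene was used, which gave 11 probes. They are 8 of 21368 genes with a symbol on the array. In iWAT, the inguinal white adipose tissue under the skin of the groin, 6 of the 8 rose in Zip13-KO mice, Nfil3 fell, and Rora was not called changed. Of all genes tested, 10.3% were called higher and 8.38% lower. Among the 8 genes, the rises ran from 2.32-fold for Bhlhe41 to 5.27-fold for Ciart, and Nfil3 was 1.87-fold lower. Bhlhe41 and Ciart were measured on dim spots, and their log2 fold changes of 1.21 and 2.40 became 0.46 and 1.27 without background correction. Among the brighter genes the rises ran from 2.48-fold for Bhlhe40 to 4.58-fold for Dbp.

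Messenger RNA was measured on 6 Agilent 1-colour arrays, on each of which 1 labelled RNA sample is hybridized and the brightness of a spot reflects the amount of a transcript. The groups were 3 WT littermates and 3 mice that lack Zip13 (Slc39a13), a zinc transporter of the ZIP family, in the whole body. In the Zip13-KO allele, exons 6 to 8 were replaced by a Neo cassette in R1 embryonic stem cells, and the mice were backcrossed onto C57BL/6J for 7 generations or more. All mice were 10 weeks old per the study, were given powdered food, and lived under 12 h of light and 12 h of dark. Which of the named diets these mice had, their sex and the hour at which tissue was taken are not given in the sources used here. For genes with a daily rhythm, a difference in level therefore cannot be told apart from a difference in sampling hour or in the timing of the rhythm. The labels do not say that each array held a different animal, so p values measure the spread between these samples, which may be technical in part.

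The circadian clock is a transcriptional loop. CLOCK and its partner BMAL1 (Arntl) bind E-boxes and switch on the Per and Cry genes, whose products then block them, while REV-ERB repressors and ROR activators set the rhythm of Arntl itself. The proteins of Dbp, Tef and Hlf are the PAR-bZIP factors, activators that bind a sequence called the D-box, and NFIL3 (E4BP4) is a repressor that binds the same sequence. Bhlhe40 (DEC1) and Bhlhe41 (DEC2) encode E-box repressors, Ciart (CHRONO) encodes a repressor of the CLOCK complex, and Rora encodes an activating nuclear receptor. In adipose tissue many genes of lipid handling follow such daily rhythms.

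Promoters of these genes were searched for the sites named above, to show which of these letters lie before genes that rose, fell or were not called. RefSeq (GRCm38.p6) gave windows of 300 bases, 250 before a start site and 50 from it, for 7 of the 8 genes, with 2 windows for Tef. Bhlhe40 was not among them. The E-box CACGTG, which reads the same on both strands, lay in both Tef windows and in those of Bhlhe41 and Ciart, and the Ciart window held 3 copies. Of all 32851 promoter windows, 7.15% held CACGTG. The stretches with the E-box in capitals, written 5′ to 3′ on the strand of the gene, were as follows, from chr15:81802526-81802571 (plus strand) and chr15:81811256-81811301 (plus strand) for Tef, chr6:145865548-145865593 (minus strand) for Bhlhe41 and chr3:95882247-95882364 (minus strand) for Ciart. All lie upstream of the start site.
Tef, first start site: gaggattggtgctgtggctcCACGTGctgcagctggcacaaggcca
Tef, second start site: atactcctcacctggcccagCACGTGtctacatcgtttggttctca
Bhlhe41: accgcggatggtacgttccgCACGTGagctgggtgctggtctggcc
Ciart: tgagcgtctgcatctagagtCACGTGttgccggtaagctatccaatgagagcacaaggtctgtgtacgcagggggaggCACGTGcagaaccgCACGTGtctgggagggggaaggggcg

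Counted from the start site, the E-boxes began at base -127 and -138 in the Tef windows, at -153 in Bhlhe41, and at -116, -58 and -44 in Ciart. The core of the ROR and REV-ERB response element, searched on both strands as TAGGTCA, was found in 1 of the 8 windows, that of Nfil3, on the opposite strand from base -12 to -6. Of all windows, 2.61% held it. Nfil3 is shown because it was the gene that fell, with the reverse complement of the element in capitals, from chr13:52981040-52981071 (minus strand).
Nfil3: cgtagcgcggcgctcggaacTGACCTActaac

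The D-box was searched on both strands as TTATGTAA, found in 0.938% of all windows, and as TTACGTAA, found in 0.119%, and neither was in a window of the 8 genes. The windows of Dbp, Hlf and Rora held none of these letters. A match is a description of the letters in the window and was not tested as a binding site.

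The targeted gene was low in each sample labelled Zip13-KO: Slc39a13 read 11.30, 10.87 and 10.72 in WT and 6.76, 6.66 and 6.47 in Zip13-KO as normalized log2 intensities (log2 fold change -4.33, SE 0.17, limma adjusted p = 0.00128). All arrays were on 1 slide in 1 scan, with 62.5 to 63.2% of spots well above background in WT and 58.8 to 60.4% in Zip13-KO, and no spot was saturated. Values below are log2 of the background-subtracted spot intensity after quantile normalization, in the order of replicates 1, 2 and 3. A gene was represented by its brightest probe, compared with limma, and called at a Benjamini-Hochberg adjusted p under 0.05 over 15302 genes and a log2 fold change beyond 0.58. All 11 probes of the 8 genes were well above background on all 6 arrays. Fold changes are given as Zip13-KO against WT with the SE of the fit, and levels are compared within a probe only. The SEs, intervals and p values of limma assume the same spread in both genotypes for a gene. Where the spreads differ, they may misstate the precision.

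Of the 8 genes, 6 were called higher, where 10.3% of all genes tested were, and 1 was called lower, where 8.38% were. In 6 genes every Zip13-KO array lay above every WT array (29.2% of all genes), and in 1 every Zip13-KO array lay below (25.9% of all genes). Over single probes, 8 of 11 were called higher (8.35% of 33033 probes) and 1 lower (7.13%).

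**Figure D1:**
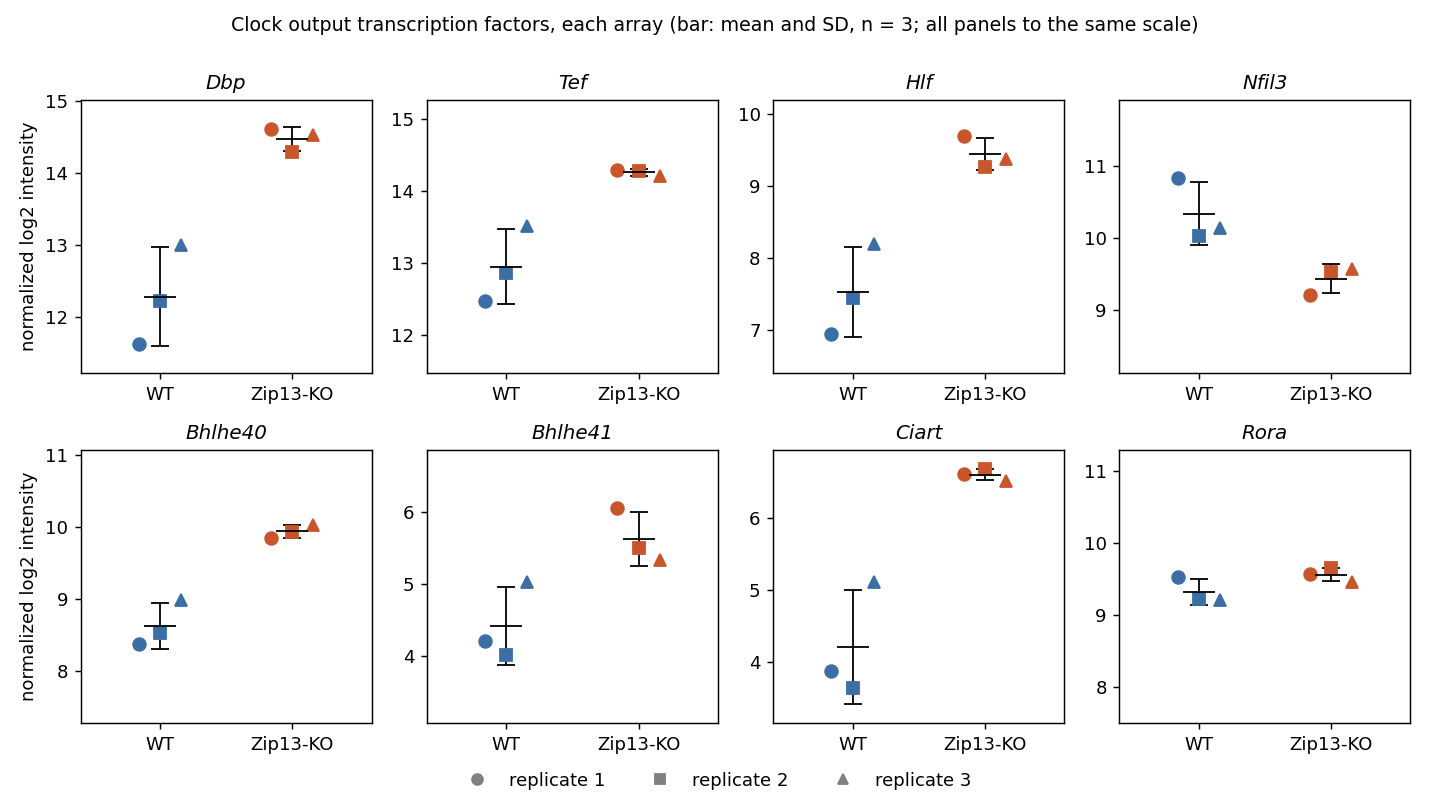
Normalized log2 intensity (y axis) of each of the 8 genes on every WT (blue) and Zip13-KO (orange) array, with a symbol for each replicate and a bar for the mean and SD of 3 arrays. All panels span the same number of log2 units. The genotypes are apart in each gene but Rora, and the WT arrays are farther apart than the Zip13-KO arrays.

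Among the PAR-bZIP activators, all of the 3 genes rose. Dbp, known for a strong daily rhythm in many tissues, read 11.62, 12.21 and 13.00 in WT and 14.61, 14.29 and 14.53 in Zip13-KO. The genotypes did not overlap, and the WT arrays were spread more widely than the Zip13-KO arrays (SD 0.69 and 0.17, n = 3 each). The rise was 4.58-fold (log2 fold change 2.20, SE 0.34, 95% interval 1.37 to 3.02), with a limma adjusted p of 0.00831.

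A second Dbp probe for the same transcript read 11.19, 11.78 and 12.59 in WT and 14.33, 14.09 and 14.24 in Zip13-KO. Its log2 fold change was 2.37, with a limma adjusted p over all probes of 0.00984. The arrays stood in the same order in WT on both probes.

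Hlf read 6.95, 7.45 and 8.19 in WT and 9.70, 9.27 and 9.37 in Zip13-KO. Its genotypes did not overlap, and the lowest Zip13-KO array was above the highest WT array. Hlf rose 3.77-fold (log2 fold change 1.92, SE 0.32, interval 1.15 to 2.68, limma adjusted p = 0.00954).

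Tef read 12.48, 12.87 and 13.51 in WT and 14.30, 14.29 and 14.21 in Zip13-KO. The Zip13-KO arrays were close together (SD 0.048) and the WT arrays were not (SD 0.52). Tef rose 2.49-fold (log2 fold change 1.31, SE 0.25, interval 0.70 to 1.93, limma adjusted p = 0.0134). The SE, interval and p assume equal spread in the genotypes, unlike these SDs, and a fit with unequal spread was not run. When Zip13-KO replicate 1 was left out its adjusted p became 0.0523, and when replicate 2 was left out 0.0504, which ended the call in both cases.

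Nfil3, the repressor at the D-box, moved the other way. It read 10.83, 10.02 and 10.14 in WT and 9.20, 9.52 and 9.56 in Zip13-KO, with WT replicate 1 the highest. The genotypes did not overlap. The log2 fold change was -0.90 (SE 0.23, interval -1.47 to -0.34), and WT was 1.87-fold above Zip13-KO (limma adjusted p = 0.0295). Leaving out Zip13-KO replicate 1, 2 or 3 gave adjusted p values of 0.0970, 0.0746 and 0.0629, which ended the call, with log2 fold changes of -0.79, -0.95 and -0.97.

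To set the activators against the repressor of the same site, the log2 value of Nfil3 was taken off on each array. The difference between genotypes was 3.10 for Dbp over Nfil3, 2.82 for Hlf over Nfil3 and 2.22 for Tef over Nfil3. In each pair every Zip13-KO array was above every WT array. This follows from the separation of the single genes in opposite directions, so these pairs add no test beyond them. The exact two-sided permutation p was 0.1 for each, the smallest that 3 against 3 arrays allow, and 0.133 adjusted over the 4 pairs compared. Relative to the WT mean, Dbp over Nfil3 was -1.15, 0.24 and 0.91 in WT and 3.46, 2.82 and 3.02 in Zip13-KO.

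The DEC repressors both rose. Bhlhe40 read 8.37, 8.53 and 8.98 in WT and 9.85, 9.94 and 10.03 in Zip13-KO, with no overlap. Its log2 fold change was 1.31 (SE 0.17, interval 0.91 to 1.71), a 2.48-fold rise, and its adjusted p from limma, 0.00621, was the lowest among the 8 genes.

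Bhlhe41 was measured by dim probes, with normalized intensities of 16.1 to 32.5 units in WT on its brightest probe. That probe read 4.20, 4.01 and 5.02 in WT and 6.04, 5.50 and 5.33 in Zip13-KO. The log2 fold change was 1.21 (SE 0.31, interval 0.45 to 1.97), a 2.32-fold rise (limma adjusted p = 0.0299). WT replicate 3 lay close under the lowest Zip13-KO array.

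The second Bhlhe41 probe, for the same transcript, read 3.80, 3.54 and 3.64 in WT and 6.04, 5.67 and 5.14 in Zip13-KO. Its WT arrays were close together, replicate 3 included. The log2 fold change was 1.96 (SE 0.23, limma adjusted p over all probes = 0.00817). The change on the brightest probe was smaller by 0.74 on the log2 scale (exact permutation p = 0.1, n = 3 each).

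The Bhlhe41 call ended in 5 of the 6 fits with 1 array left out, all but that without WT replicate 3, with adjusted p values of 0.0525 to 0.0910. Without background correction its log2 fold change was 0.46 (limma adjusted p = 0.0529). The change of Bhlhe41 minus that of Bhlhe40 was -0.10, with an exact permutation p of 0.8 (n = 3 each; 0.8 adjusted over the 4 pairs). This difference was 0.27 with the mean of both Bhlhe41 probes (exact permutation p = 0.6), -0.61 with normexp correction (0.2), and -0.78 without background correction and in the deposited table (0.1 in each, the smallest p the design allows). Its direction thus changed with the probe, and its size with the background correction.

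Ciart, the CHRONO gene, had the largest fitted rise of the 8, a place that depended on the background correction. It read 3.88, 3.64 and 5.11 in WT and 6.61, 6.68 and 6.53 in Zip13-KO. WT replicate 3 was above the other WT arrays and below each Zip13-KO array. The log2 fold change was 2.40 (SE 0.38, interval 1.49 to 3.31), a 5.27-fold rise (limma adjusted p = 0.00863). Its spots were dim in WT, at 12.5 to 34.6 normalized units against 92.2 to 102.9 in Zip13-KO, and its log2 fold change was 1.27 without background correction and 1.02 with normexp correction, called in both. Dbp (2.19 in both settings), Hlf (1.72 and 1.61) and Tef (1.319 and 1.315) were then above Ciart. With normexp correction Bhlhe40 (1.20) was above Ciart too. Without WT replicate 2, Dbp was above Ciart (2.16 against 2.11).

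Rora, which encodes the activator of the ROR element, read 9.52, 9.22 and 9.20 in WT and 9.56, 9.64 and 9.46 in Zip13-KO. The genotypes overlapped, since WT replicate 1 lay above Zip13-KO replicate 3. The log2 fold change was 0.24 (SE 0.11, interval -0.03 to 0.52; limma adjusted p = 0.141). A second, dimmer probe for another Rora transcript read 5.98, 5.94 and 5.57 in WT and 6.23, 6.21 and 6.27 in Zip13-KO, with no overlap. Its log2 fold change was 0.41 (limma adjusted p over all probes = 0.0586). Changes of more than 0.72 lay outside the 95% interval of either probe.

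**Figure D2:**
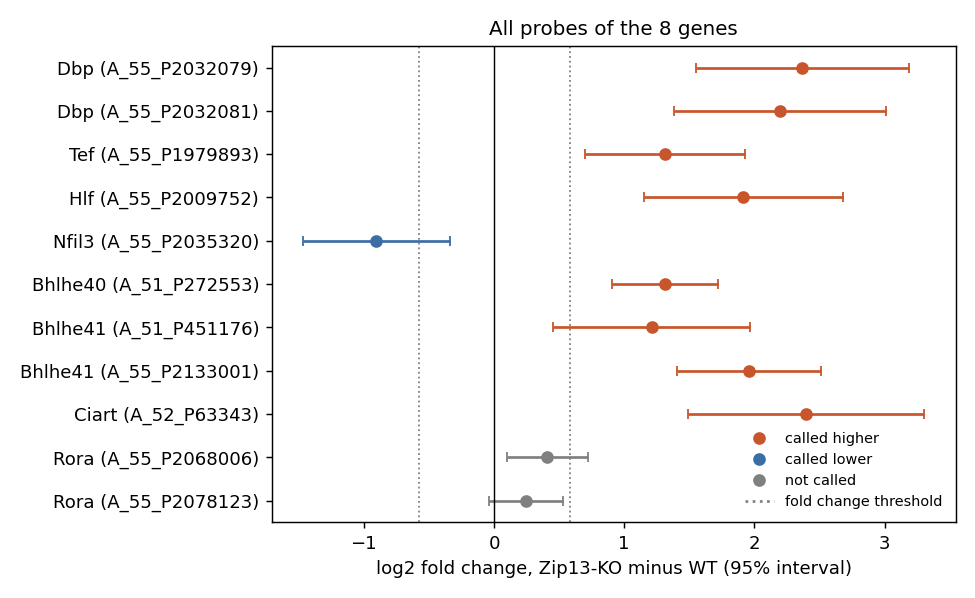
Log2 fold change with its 95% interval (x axis) of each of the 11 probes, fitted over all probes, coloured by call, with dotted lines at the fold change threshold of 0.58 in either direction. Both Dbp and both Bhlhe41 probes lie to the right of the threshold, Nfil3 is the sole probe to the left, and both Rora probes lie between the lines.

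The position of the arrays on the slide was shared with genotype in part, with the WT arrays and Zip13-KO replicate 1 in column 1 and Zip13-KO replicates 2 and 3 in column 2. Within column 1, the change from the 3 WT arrays to Zip13-KO replicate 1 was 2.33 for Dbp, 1.35 for Tef, 2.17 for Hlf, -1.13 for Nfil3, 1.22 for Bhlhe40, 1.63 for Bhlhe41, 2.40 for Ciart and 0.25 for Rora on the log2 scale. Each had the direction of the fit over all arrays. For all but Rora this follows from the separation of the genotypes, so it adds no test of the slide column. With slide column as a term none of the 8 genes was called by limma (adjusted p 0.0694 to 0.101 for the 7 called before, each under 0.05 unadjusted), in a fit that called 0 genes higher and 7 lower among 15302, with 4803 under 0.05 unadjusted.

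The spread between WT arrays was large for most of these genes. The SD over the 3 WT arrays was above the SD over the 3 Zip13-KO arrays in all 8 genes on their brightest probes. So it was in 68.9% of all genes tested, 81.5% of genes called higher and 69.2% of the 26 listed core clock and other rhythmic genes. Ciart and Bhlhe41 were dim in WT. The second Bhlhe41 probe went the other way, with an SD of 0.13 in WT and 0.45 in Zip13-KO. The median SD over all genes was 0.156 in WT and 0.0999 in Zip13-KO. For Ciart, Dbp and Hlf the WT SD was larger than that of 97.6%, 96.5% and 95.5% of genes, for Bhlhe41 93.3%, for Tef 92.8%, for Nfil3 89.1%, for Bhlhe40 80.1% and for Rora 56.7%.

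On the brightest probe of each gene, WT replicate 3 was the highest WT array for the 6 genes that rose, and for 52.5% of all 1576 genes called higher and 36.4% of all genes tested. Dbp, Tef, Hlf and Bhlhe40 were also lowest in WT replicate 1, an order found in 23.1% of all genes. On the second Bhlhe41 probe WT replicate 1 was the highest WT array. These are descriptions of single samples. Without WT replicate 3, the log2 fold changes were 2.56 for Dbp and 2.85 for Ciart, and without WT replicate 1 they were 1.87 and 2.23.

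Profiles were compared by the mean absolute difference over the 6 arrays after the WT mean of each gene was taken off. Dbp and Hlf differed by 0.165 and Tef and Bhlhe40 by 0.122, while Dbp and Nfil3 differed by 1.94. The measure is small only between genes of similar log2 fold change, and a shared role or control of near genes was not tested. Outside the 8 genes, the tested genes nearest to Dbp were Plin5 (0.184), a lipid droplet protein of oxidative tissue, and Ccno (0.200). Their log2 fold changes were 2.26 and 2.13, against 2.20 for Dbp. Nearest to Hlf were Nrg4 (0.0997), a secreted factor of brown fat, and the clock gene Per3 (0.126).

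The genes outside the 8 nearest to Tef were the potassium channel Kcna5 (0.0601) and Lpin1 (0.0652), a phosphatidate phosphatase of triglyceride synthesis. For Bhlhe40 they were Dpyd (0.0686), an enzyme of pyrimidine breakdown, and Usp2 (0.0857), a deubiquitinase with a daily rhythm. Those nearest to Ciart were Ntrk3 (0.138) and Cidea (0.156), a lipid droplet protein used as a marker of brown and beige adipocytes. For Nfil3 they were Ccdc166 (0.0596) and Mcoln2 (0.0682), for Bhlhe41 Ptpru (0.130) and Olfr78 (0.130), and for Rora Bet1 (0.0237) and Dnajc25 (0.0368).

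Among the 21 other core clock genes listed, 3 were called higher and 1 lower, where 10.3% and 8.38% of all genes tested were. Of 4 activators, Arntl fell (log2 fold change -0.76, limma adjusted p = 0.0307), Clock differed by 0.12, and Arntl2 by 0.45, under the fold change threshold (limma adjusted p = 0.00775). The dim Npas2 had the largest difference of the 4, -0.96, but its genotypes overlapped (limma adjusted p = 0.296). Of 6 genes of the PER and CRY group, Per3 (1.72, limma adjusted p = 0.01004) and Cry2 (0.80, 0.0214) rose. Per2 differed by 0.97 (0.105) and Per1 by 0.13.

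Of 3 REV-ERB and ROR genes, Nr1d2 rose by 1.09 on the log2 scale (limma adjusted p = 0.0227), while Nr1d1 differed by 0.58 (0.0983) and Rorb by -0.46. The 8 clock kinases and ubiquitin ligases held no called gene, and none with an unadjusted limma p under 0.05 (1, Csnk1d, by the methods' t-test), with log2 fold changes from -0.09 for Fbxw11 to 0.56 for Fbxl21 and a median of -0.03. The median was 1.31 for the 8 clock output genes and -0.00051 for all genes tested.

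The next list holds genes known as targets of the PAR-bZIP factors, mostly from liver and kidney. Of 8 listed, 6 were tested and 3 rose: Ppara, a nuclear receptor of fatty acid oxidation (log2 fold change 2.03, limma adjusted p = 0.00913), Alas1, the first enzyme of heme synthesis (0.66, 0.0497), and Por, the electron donor of cytochrome P450 enzymes (0.65, 0.0229). Cyp2b10 differed by 0.27, Nr1i3 by 0.03 and Pdxk by -0.04, and the median of the 6 was 0.46. Of 5 other rhythmic output genes, Usp2 rose (1.33, limma adjusted p = 0.00667), and the others lay between -0.22 for Wee1 and 0.52 for Nampt.

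Glucocorticoids, hormones with a daily peak, act on a further set of genes. None of 6 such genes was called by limma, with log2 fold changes from -0.49 for Fkbp5 to 0.33 for Klf9 and a median of -0.05, and none of the 6 had an unadjusted p under 0.05.

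**Figure D3:**
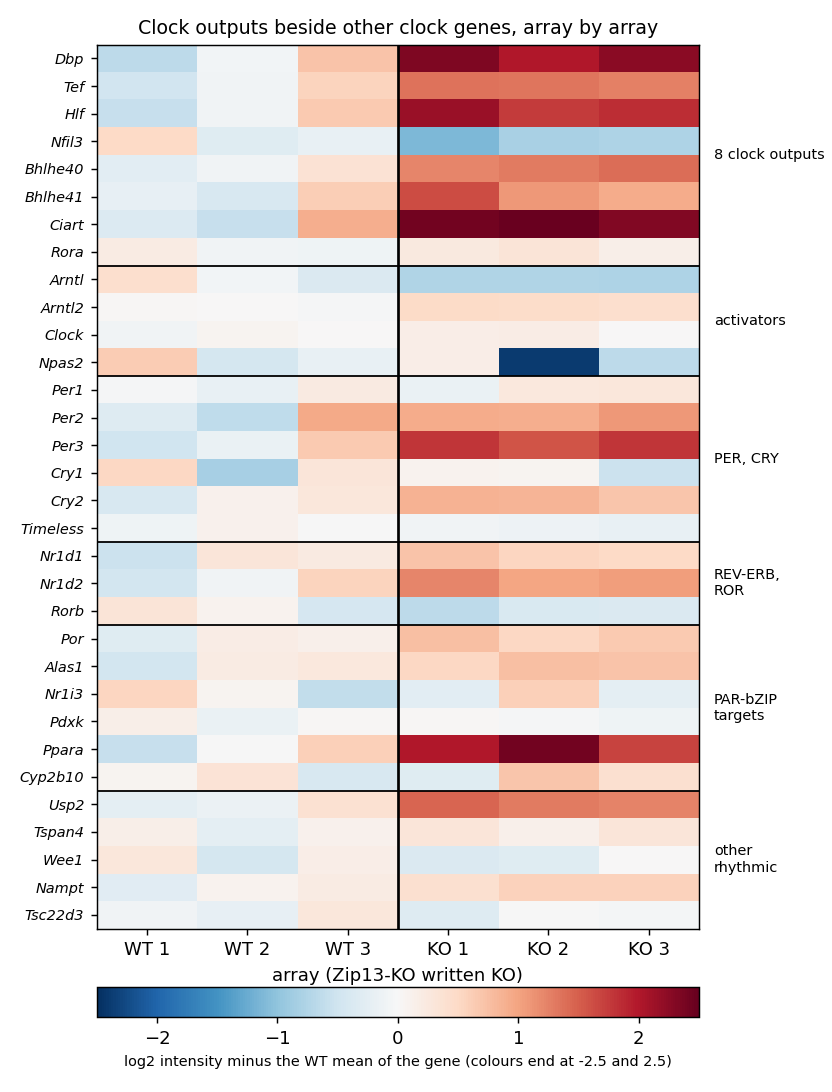
Log2 intensity minus the WT mean of the gene (colour, blue lower and red higher) on each array (columns, 3 WT then 3 Zip13-KO, written KO) for the 8 clock output genes and the listed clock, target and rhythmic genes tested (rows). Dbp, Tef, Hlf, Bhlhe40, Bhlhe41, Ciart, Per3, Nr1d2, Ppara and Usp2 are red on all Zip13-KO arrays and paler red in WT replicate 3. Cry2, Nr1d1, Por, Alas1, Nampt and Tspan4 show this more faintly. Nfil3 and Arntl are blue on all Zip13-KO arrays, and Rorb and Timeless are also below the WT mean on all of them.

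The tissue is a mixture of cells, and fewer cells of a type and less RNA per cell cannot be told apart in it. Adipocyte markers were bright, and 3 of 8 were called higher (median log2 fold change 0.67, summed normalized intensity 367170 to 500830 units in WT and 582970 to 611960 in Zip13-KO). Of 7 brown and beige adipocyte markers, 7 were called higher (median 2.19, summed 34154 to 55788 and 149610 to 229060). Of 10 macrophage markers, 8 were called lower (median -1.31, summed 103140 to 170660 and 48019 to 64712). Their part in the changes of the clock output genes was not tested.

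Of 8 stromal markers, 2 were called lower (median -0.57, summed 176610 to 372000 in WT and 161140 to 198330 in Zip13-KO), as were 2 of 11 T, NK and innate lymphoid markers (-0.39, summed 29567 to 37471 and 20523 to 24980) and 1 of 6 B cell markers (-0.39, summed 39353 to 46386 and 30406 to 34043). Of 5 endothelial markers 1 was called higher (0.31, summed 5969 to 6448 and 7713 to 8010). None of 6 skeletal muscle markers (median 0.88, summed 1065 to 3109 and 1765 to 6595) or 4 mammary epithelial markers (0.42, summed 96.2 to 329.9 and 112.1 to 438.5) was called by limma, and of these 10 only Krt5, a mammary epithelial marker named after its value was seen, had an unadjusted p under 0.05 (0.0458). In WT replicate 1, where Dbp, Tef, Hlf and Bhlhe40 were lowest, the median marker relative to the WT mean was -0.39 for adipocytes, 0.44 for macrophages and 0.45 for stroma. In WT replicate 2 these medians were 0.25, -0.07 and -0.04, and in WT replicate 3 they were 0.16, -0.33 and -0.44. The adipocyte median was highest in replicate 2. The median of the brown and beige markers was 0.04, -0.04 and 0.24 in WT replicates 1, 2 and 3. These are single arrays, and a link between the markers and the WT order of the clock output genes was not tested.

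**Figure D4:**
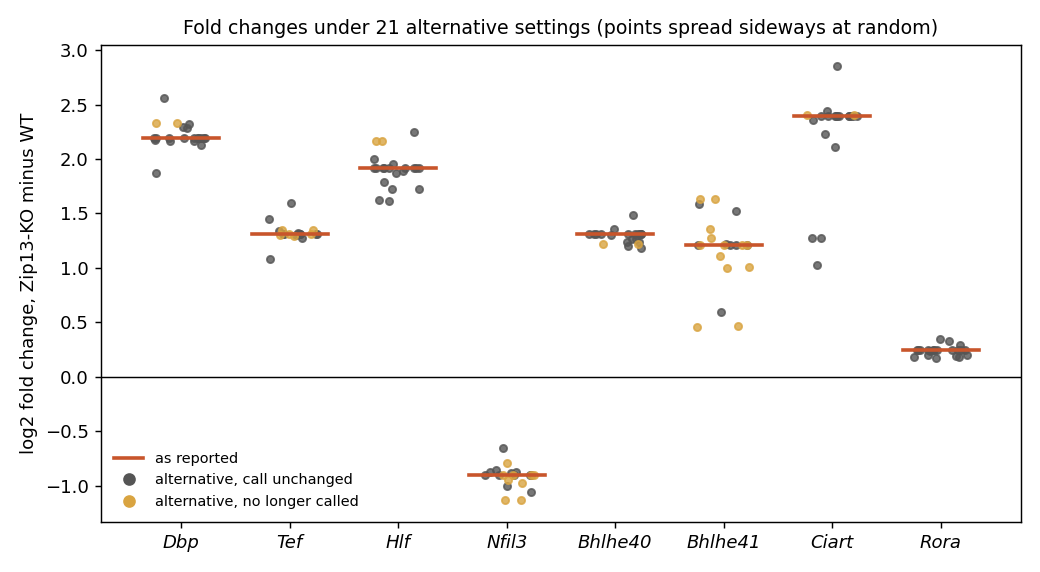
Log2 fold change (y axis) of each of the 8 genes as reported (orange line) and under 21 other settings (points, gold where the gene was no longer called). Settings that changed only the test, a threshold, the filter or the replicate block keep the reported fold change, so their points lie on the line. No point crosses 0 to the other side, which leaving out 1 array or the slide column settings could bring about for Rora alone. The points of Dbp run from 1.87 to 2.56 and those of Nfil3 from -1.13 to -0.65. Points of Bhlhe41 and Ciart, the dim genes, reach down to 0.46 and 1.02.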

How the data were processed

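Total RNA from iWAT was labelled with Cy3 and hybridized to 6 arrays. The scanner files deposited by the authors, made with Feature Extraction 11.5.1.1, give a processed signal in intensity units per spot, background-subtracted and not normalized between arrays. The authors also deposited a table of log2 values, which matched quantile-normalized log2 of the median signal. Here log2 of the processed signal was used, without control and outlier spots, averaged per probe and quantile normalized. Probes were kept when well above background on all 3 arrays of a genotype, and 13 probes with no value on an array were left out. Symbols came from RefSeq accessions (28331 of 55681 probes named). Genotypes were compared with limma 3.58.1 in R 4.3.3 (lmFit, eBayes), tested on simulated data, and pairs of genes by exact permutation. Members and gene lists were chosen with earlier results of these data known. The genes named are the members, listed clock, output and target genes that were called or at a list's extremes, and for each member the 2 nearest tested genes that are not members; Per1, Per2, Nr1d1, Clock, Arntl2, Cyp2b10, Nr1i3 and Rorb were added from the lists after their values were seen. The number of arrays limits the precision. A result for 1 listed clock gene is not reported here.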

Additional observations from a re-analysis of the deposited data

How the results depend on the processing

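Over 21 alternatives no member changed direction. Those that changed only the test, its prior, a threshold, the filter or the replicate block left each member's fold change as it was. They could therefore not reverse it, and the slide column settings gave the same fold changes as each other. Leaving out 1 array and the slide column settings could reverse Rora alone, since the genotypes of the other members did not overlap. None of the alternatives let the spread differ between genotypes, so the dependence of the calls on equal spread was not tested. The number of members called higher was 6 as reported and 4 to 6 in all settings but 2: it was 0 with slide column as a term and 0 within slide column 1 (limma; 7 members had an unadjusted p under 0.05 in each). Column 1 holds 1 Zip13-KO array, so the spread there came from the 3 WT arrays alone and the Zip13-KO array was assumed to vary like them; that fit called 16 genes higher and 8 lower in all. It was 4 to 6 with 1 array left out. The number called lower was 1 as reported and 0 with no filter on dim probes, with the methods' t-test after adjustment, at an adjusted p under 0.01, with the replicate block, with slide column as a term and within slide column 1, and it was 0 to 1 with 1 array left out. Under the replicate block, 5 members were called higher, with Bhlhe41 (adjusted p 0.0698) and Nfil3 (0.0782) lost. The labels do not say whether replicate numbers pair the samples. Over all genes tested, the deviations of same-numbered arrays from their group means correlated at -0.02, 0.04 and -0.08. These values cannot decide it, since pairing could show in some genes only. The Bhlhe41 minus Bhlhe40 difference of -0.10 reversed to 0.27 with the mean of a gene's probes, and to 0.03 and 0.10 without WT replicate 3 and Zip13-KO replicate 3. It was -0.35 to 0.10 with 1 array left out, and -0.78 without background correction and -0.78 in the deposited table (exact permutation p = 0.1 in each). Differences of Dbp, Tef and Hlf from Nfil3 kept their sign in 11 alternatives each, as the opposite directions of the single genes require.

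Of all genes, 1576 were called higher and 1282 lower. These counts were 707 and 505 at an adjusted p under 0.01, 2952 and 2330 with no fold change threshold, 1008 and 721 with the methods' t-test after adjustment and 1552 and 1246 before it, an alternative chosen after seeing the data. They were 969 and 778 without Zip13-KO replicate 1 and 1025 and 787 without Zip13-KO replicate 2. Of the members called here, signal over background limits Ciart and Bhlhe41 in WT. The background correction by normexp was run on the median signal of spots.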
